A study of Mus musculus with 6 samples.

Results

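The genes described here encode serine/threonine protein phosphatases, their regulatory subunits and the dual-specificity (Dusp) phosphatases, as expressed in the mouse testis after treatment with JQ1, a small molecule that blocks the acetyl-lysine binding pocket of BET bromodomain proteins, including the testis protein BRDT. Members were all genes whose array symbol begins with Ppp1 to Ppp6, with Ppm1, or with Dusp and a digit. The array carried 111 such genes on 235 probes, and 92 of them, on 163 probes, were detected in at least 2 of the 5 mice and were measured, among 11601 named genes measured in all. A probe counts as detected where its detection p, the chance of such a signal from negative-control beads, was under 0.05. The remaining 19 genes, among them Dusp8, Dusp9, Dusp26, Ppp1r1a, Ppp1r3a and Ppp2r3a, were detected in no mouse (16 genes) or in 1 mouse (3 genes). For 84 of the 92 members the brightest probe was detected in all 5 mice.

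Total RNA of whole testis came from male mice of the hybrid strain labelled C57/129. The JQ1 group was 3 mice given 50 mg/kg daily for 6 weeks, between 6 and 12 weeks of age, and the Control group was 2 mice given vehicle over the same weeks. Control mouse 1 was hybridised on 2 arrays, which were averaged, so that 6 Illumina bead arrays stand for 5 mice. The labels name no engineered allele. The whole organ was used, so that a change in the signal of a gene cannot separate fewer cells of a type from less RNA per cell.

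These enzymes remove phosphate from serine, threonine or tyrosine. A few catalytic subunits do most of the work of protein phosphatase 1 (PP1), PP2A and calcineurin, and a large set of regulatory subunits decides where each acts. Spermatogenic cells use their own versions of several subunits. The gene Ppp1cc makes the PP1 form that predominates in sperm, and Ppp3cc with Ppp3r2 make the calcineurin of sperm, which mouse sperm need for normal motility, whereas Ppp1ca, Ppp1cb, Ppp3ca, Ppp3cb and Ppp3r1 serve most other tissues. Dusp phosphatases act on MAP kinases or, in the atypical Dusp genes, on varied substrates that include RNA.

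The start regions of a germ cell subunit and of its paralog can hold different short motifs, as the calcineurin B pair shows, and Ppp1cc is given beside them as the sperm PP1 gene of the comparisons that follow. RefSeq promoters (GRCm38.p6) were found for 74 of the 92 members. Each line below holds the 300 bases around the annotated transcription start, read in the direction of the gene, with capitals at every match to the letters TGACGTCA for the cAMP response element, TGACG for its core (contained in the element), GGGCGG for the GC box, CCAAT for the box of that name, TATAAA for the TATA box, GTTGCC for the RFX core or CACGTG for the E-box on either strand.
Ppp3r2 (chr4:49681934-49682233, minus strand): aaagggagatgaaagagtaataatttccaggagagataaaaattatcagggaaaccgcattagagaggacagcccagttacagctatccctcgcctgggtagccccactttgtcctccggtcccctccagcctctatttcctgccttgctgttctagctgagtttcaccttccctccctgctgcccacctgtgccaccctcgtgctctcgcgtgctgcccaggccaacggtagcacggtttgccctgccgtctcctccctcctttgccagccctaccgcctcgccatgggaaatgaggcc
Ppp3r1 (chr11:17159048-17159347, plus strand): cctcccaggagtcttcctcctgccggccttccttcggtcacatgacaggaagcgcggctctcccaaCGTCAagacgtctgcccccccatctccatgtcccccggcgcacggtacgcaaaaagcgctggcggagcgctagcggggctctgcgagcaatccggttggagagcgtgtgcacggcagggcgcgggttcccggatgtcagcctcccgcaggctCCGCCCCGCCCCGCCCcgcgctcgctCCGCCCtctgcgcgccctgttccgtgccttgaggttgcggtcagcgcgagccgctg
Ppp1cc (chr5:122158025-122158324, plus strand): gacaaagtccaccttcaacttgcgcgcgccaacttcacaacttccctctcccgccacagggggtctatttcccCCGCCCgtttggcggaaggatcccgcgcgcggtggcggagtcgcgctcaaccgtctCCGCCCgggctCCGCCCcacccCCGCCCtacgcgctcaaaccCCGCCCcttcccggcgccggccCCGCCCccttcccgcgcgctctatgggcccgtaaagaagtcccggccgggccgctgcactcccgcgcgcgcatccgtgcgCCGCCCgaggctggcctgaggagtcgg
The Ppp3r2 promoter held none of these letters. The Ppp3r1 promoter held 4 GC boxes, 3 of them overlapping, and 1 TGACG core, and the Ppp1cc promoter held 7 GC boxes. GGGCGG stood in 35.7% of all 32851 mouse promoters of this length and TGACG in 20.8%. Among members with a promoter GGGCGG stood in 10 of 17 that were higher with JQ1 and in 11 of 20 that were lower, and TGACG in 9 of the 17 and 6 of the 20. Over all 74 members with a promoter, called or not, GGGCGG stood in 53 and TGACG in 33. The full TGACGTCA stood in 2 of the 17 and in 2 of the 20, in 7 of all 74 members with a promoter, called or not, and in 1.79% of all promoters. These matches describe letters in a window and mark no binding site.

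Values are log2 intensities after background correction and quantile normalization, and each gene is represented by its brightest detected probe unless another is named. A log2 difference of 1 is a doubling. Changes are JQ1 minus Control with their standard error (SE), over 3 JQ1 and 2 Control mice. Genes were tested between JQ1 and Control with limma's moderated test, and a gene is called higher or lower with JQ1 at an adjusted p (Benjamini-Hochberg over 20554 probes) under 0.05. Of the 92 members, 19 were higher and 29 were lower with JQ1. Over all 11601 genes 25.3% were called higher and 21.7% lower, so that the members' 20.7% and 31.5% compare with those shares. Changes of 2-fold or more were found for 7 higher and 2 lower members, or 7.61% and 2.17%, beside 8.54% and 2.88% of all genes. The median change of the members was -0.17 on the log2 scale and that of all genes 0.00. With cyclic loess in place of quantile normalization the split was 23 higher and 20 lower members. Over all genes it was then 3275 higher and 1939 lower, against 2939 and 2521 with quantile normalization. The count of lower members was 17 without JQ1 mouse 2, 16 without JQ1 mouse 3 and 19 of 111 with no detection filter. Lower calls over all genes fell too, to 1997, 2024 and 2270 at these settings, the last of 19057 genes. Without Control mouse 1 a lone Control mouse remained, and the count of lower members was smaller still.

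**Figure D1:**
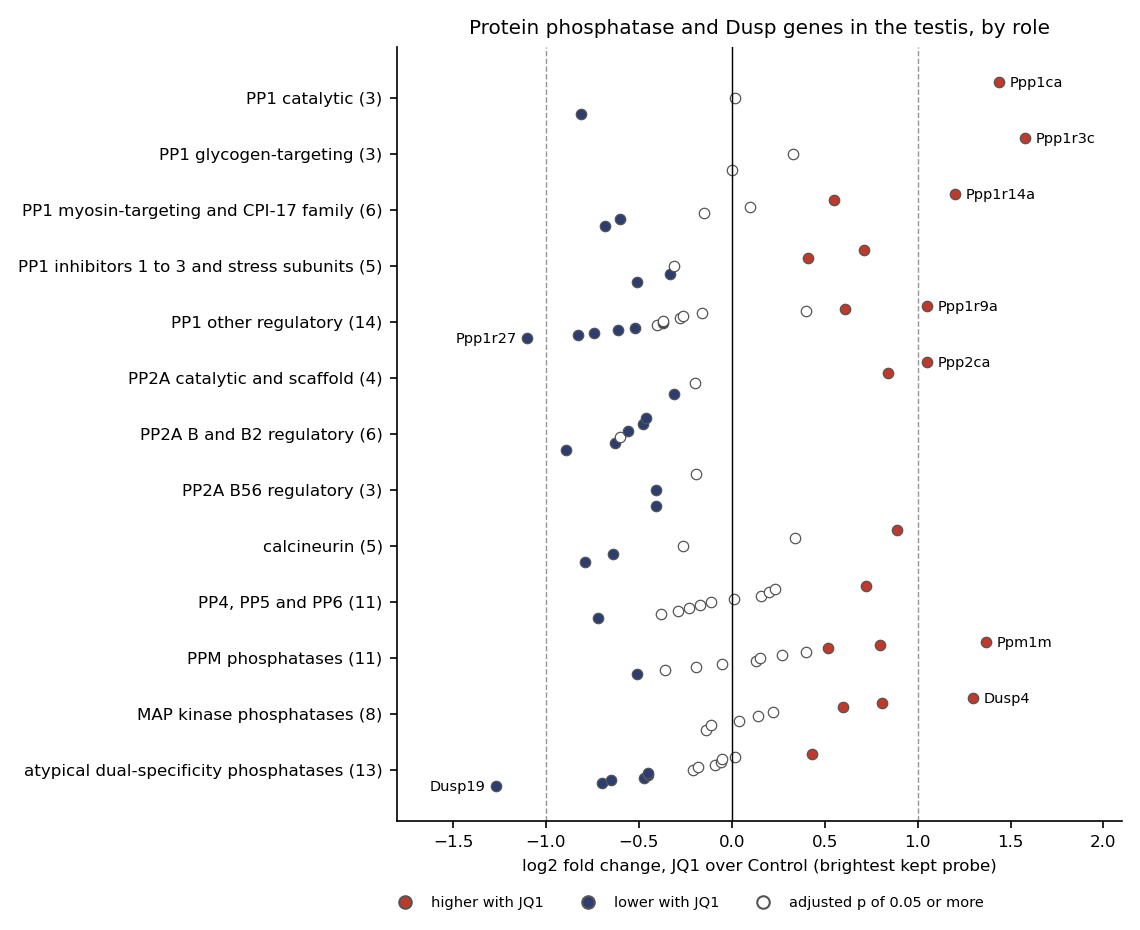
Log2 fold change, JQ1 over Control, of the brightest probe of each of the 92 members (points), grouped by role with the number of members in brackets. Filled points passed the adjusted p, dashed lines mark a change of 2-fold, and the 9 genes past both are named.

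RNA of markers of several cell types differed between the groups, and no cell shares were measured. Of 9 Sertoli cell markers measured, 8 were higher with JQ1, and the median change of the list was 1.34. Their summed linear signal lay between 32060 and 38117 in JQ1 mice and between 12389 and 13875 in Control mice. Sox9, the transcription factor that defines Sertoli cells, rose by 1.70 ± 0.13 (SE). The Sertoli markers Amh and Gata4 were not kept. All 5 Leydig cell markers were higher, with sums of 19376 to 26905 in JQ1 mice and 9264 to 10871 in Control mice. So were 7 of 8 macrophage markers (2266 to 3674 in JQ1 mice, 1238 to 1831 in Control mice) and 4 of 9 spermatogonial markers (2270 to 2628 in JQ1 mice, 1498 to 1696 in Control mice). Of 7 endothelial markers 1 was higher (1020 to 1107 in JQ1 mice, 840 to 976 in Control mice), and of 5 peritubular and smooth muscle markers 3 were higher and 1, Actg2, lower (13925 to 15488 in JQ1 mice, 9714 to 11189 in Control mice). Markers of meiotic and later germ cells that passed were lower. These were 4 of 9 pachytene spermatocyte markers (86368 to 92882 in JQ1 mice, 104896 to 115724 in Control mice), 3 of 11 round spermatid markers (42737 to 45867 in JQ1 mice, 50288 to 50402 in Control mice) and 1 of 11 elongating spermatid markers (114891 to 128178 in JQ1 mice, 124725 to 126059 in Control mice). Sycp3, Hormad1, Mael and Tssk1 were on the array but not kept. The part of these shifts in the results below was not tested.

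Among the PP1 catalytic subunits the brightest probe of Ppp1cc fell and that of its widely expressed paralog Ppp1ca rose. Ppp1cc measured 8.21, 7.98 and 7.68 in JQ1 mice, against 8.84 and 8.70 in Control mice. Every JQ1 mouse lay below both Control mice, and the change was -0.81 ± 0.17 (SE), or 1.75-fold lower (adjusted p = 0.000843). Ppp1ca, the alpha catalytic subunit, measured 10.33, 10.38 and 10.58 in JQ1 mice, against 8.97 and 9.01 in Control mice. It was 2.72-fold higher (log2 1.44 ± 0.14, adjusted p = 5.07e-07), with no overlap, and 2 of its other 3 probes rose as well (1.28 and 1.19). Ppp1cb, the beta subunit, measured 8.12, 8.22 and 8.57 in JQ1 mice and 8.43 and 8.13 in Control mice. Its groups overlapped, and it did not pass the test (0.02 ± 0.17, adjusted p = 0.932). The dimmer probe of Ppp1cc did not follow the brighter one (0.18 ± 0.19, adjusted p = 0.442), and which splice forms each probe reads was not determined here. Averaged over its kept probes, Ppp1cc did not pass (-0.31, adjusted p = 0.0945).

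In calcineurin, the calcium- and calmodulin-dependent phosphatase, the sperm B subunit fell and its paralog rose. Among the A subunits a smaller contrast was seen by the brightest probes. Ppp3r2, the B subunit of sperm calcineurin, measured 11.56, 11.69 and 11.34 in JQ1 mice, against 12.39 and 12.24 in Control mice. Its paralog Ppp3r1 measured 8.89, 8.94 and 8.86 in JQ1 mice, against 7.80 and 8.22 in Control mice. Thus Ppp3r2 was 1.73-fold lower (-0.79 ± 0.13, adjusted p = 0.000102) and Ppp3r1 1.85-fold higher (0.89 ± 0.16, adjusted p = 0.00022), each without overlap between groups. Ppp3cc, the sperm catalytic A subunit, measured 10.71, 10.47 and 10.50 in JQ1 mice and 11.18 and 11.22 in Control mice, and was lower by -0.64 ± 0.13 (adjusted p = 0.000618). Its other, much dimmer probe changed by 0.26 ± 0.21 and did not pass (adjusted p = 0.31). For Ppp3ca the change was -0.26 ± 0.12 (adjusted p = 0.0873), and for Ppp3cb 0.34 ± 0.14 (adjusted p = 0.0533). Neither passed by its brightest probe, although all 3 JQ1 mice lay below both Control mice for Ppp3ca and above them for Ppp3cb. Averaged over all kept probes both passed (-0.37, adjusted p = 0.0213 for Ppp3ca and 0.34, adjusted p = 0.0428 for Ppp3cb). The same average ended the call of Ppp3cc (-0.19, adjusted p = 0.283), so that Ppp3ca then fell by more than Ppp3cc.

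In PP2A the catalytic gene Ppp2ca and the scaffold gene Ppp2r1a, on which catalytic and regulatory subunits assemble, rose. Ppp2ca measured 11.60, 11.70 and 11.88 in JQ1 mice, against 10.57 and 10.77 in Control mice, and was 2.07-fold higher (1.05 ± 0.13, adjusted p = 6.98e-06). Ppp2r1a measured 8.28, 8.53 and 8.35 in JQ1 mice and 7.75 and 7.33 in Control mice (0.84 ± 0.17, adjusted p = 0.000592). The JQ1 mice lay above the Control mice for both genes. The second catalytic gene, Ppp2cb, measured 11.52, 11.40 and 11.35 in JQ1 mice and 11.81 and 11.66 in Control mice (-0.31 ± 0.12, adjusted p = 0.0446), a call that was lost when any mouse but JQ1 mouse 1 was left out. Ppp2r1b, the second scaffold gene, measured 9.03, 8.78 and 8.74 in JQ1 mice and 9.27 and 8.84 in Control mice by its brightest probe, with overlap (adjusted p = 0.315). Its other 3 probes were each lower with JQ1, by -1.03 ± 0.19, -0.73 ± 0.19 and -0.77 ± 0.21 (adjusted p = 0.000366, 0.00427 and 0.00609).

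**Figure D2:**
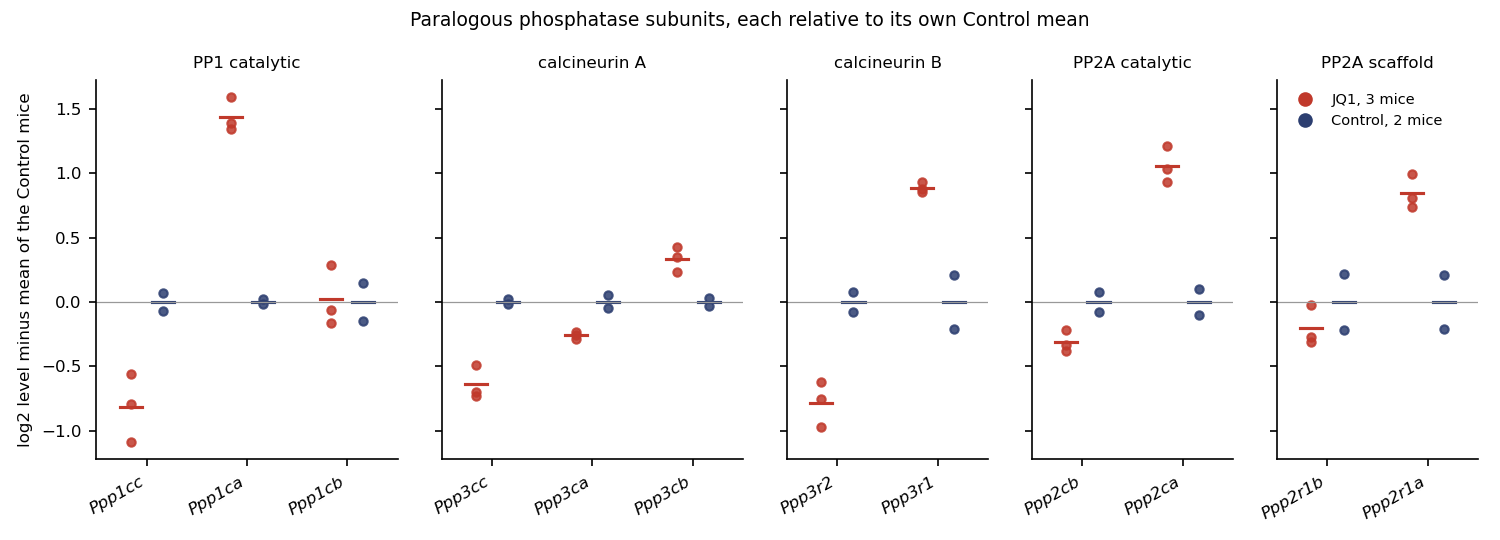
Log2 level of each catalytic, calcineurin B and scaffold gene in each mouse, less the mean of that gene's Control mice (JQ1 left, 3 mice; Control right, 2 mice; bars, group means). Ppp1cc, Ppp3cc, Ppp3r2, Ppp3ca and Ppp2cb lie below their Control mice and Ppp1ca, Ppp3r1, Ppp2ca, Ppp2r1a and Ppp3cb above them. Of these, Ppp3ca and Ppp3cb did not pass the test, and the groups of Ppp1cb and Ppp2r1b overlap.

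Paralogs were then set against each other within each mouse, as the log2 level of the first gene minus that of the second, and the differences compared between groups. Since 2 probes differ in brightness, only the shift between groups is read and not the level. Ppp1cc minus Ppp1ca was -2.47 ± 0.40 in JQ1 mice and -0.22 ± 0.13 in Control mice (SD), a shift of -2.25, or 4.76-fold. Ppp3r2 minus Ppp3r1 was 2.63 ± 0.14 in JQ1 mice and 4.31 ± 0.40 in Control mice, a shift of -1.67. The shift was -1.37 for Ppp2cb minus Ppp2ca, -1.05 for Ppp2r1b minus Ppp2r1a, -0.98 for Ppp3cc minus Ppp3cb, -0.83 for Ppp1cc minus Ppp1cb and -0.38 for Ppp3cc minus Ppp3ca. In all 7 pairs every JQ1 mouse lay below both Control mice. How often other gene pairs separate in this way was not counted. The sign depends on which gene is written first, and the PP2A pairs hold no subunit described above as that of sperm. The two-sided exact permutation p was 0.1, the smallest that 3 against 2 mice can give, for 6 pairs and 0.2 for Ppp1cc minus Ppp1cb (0.117 and 0.2 adjusted over the 7 pairs), so that no pair passed 0.05. The pairs share genes and were chosen with earlier results known. Over all combinations of kept probes the shift was negative in 4 of 4 for Ppp2r1b and Ppp2r1a, in 7 of 8 for Ppp1cc and Ppp1ca, in 3 of 4 for Ppp1cc and Ppp1cb and in 2 of 4 for Ppp3cc and Ppp3ca, where averaging all probes of each gene turned it to 0.18.

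By their brightest probes, no regulatory subunit of PP2A was called higher with JQ1. The 9 measured regulatory genes all had a negative change, and limma's test called 7 lower and 0 higher, where 21.7% of all genes were lower. At an unadjusted p under 0.05 limma called 8 of the 9 lower and 0 higher, and the share of all genes at that cut was not counted. The median change of the 9 was -0.48. With all kept probes of each gene averaged, 7 changes were negative and 2 positive, and 4 genes were called lower and 0 higher. Ppp2r3c, a calcium-binding B subunit also called G5PR, measured 8.90, 8.69 and 8.73 in JQ1 mice and 9.80 and 9.54 in Control mice, and was 1.86-fold lower (-0.89 ± 0.15, adjusted p = 0.000103). Ppp2r2c, a B55 subunit known from brain, was lower by -0.63 ± 0.19 (adjusted p = 0.0118), and its call was lost without Control mouse 2 (adjusted p = 0.0784). The B56 subunits Ppp2r5c and Ppp2r5e, a family that guards cohesin at meiotic centromeres together with shugoshin, were each lower by -0.41 ± 0.14 (adjusted p = 0.0246 and 0.0247). Both calls were lost on leaving out any of several single mice, with adjusted p up to 0.196 for Ppp2r5c and 0.209 for Ppp2r5e. The count of lower regulatory genes was 4 with cyclic loess normalization and 3 without JQ1 mouse 2, JQ1 mouse 3 or Control mouse 1, and at none of these settings was a brightest probe called higher.

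Of the 28 PP1 regulatory genes measured, 7 were higher and 10 lower, beside 25.3% and 21.7% of all genes, so that the higher count is near the share of all genes (4 lower without Control mouse 1, 6 without JQ1 mouse 3, and 4 higher without Control mouse 2). The largest rise was that of Ppp1r3c, which directs PP1 to glycogen. It measured 8.96, 9.03 and 9.40 in JQ1 mice, against 7.50 and 7.59 in Control mice, and was 3-fold higher (1.58 ± 0.16, adjusted p = 1.14e-06). The JQ1 and Control mice were well apart, and the 2 other glycogen-targeting subunits measured, Ppp1r3d and Ppp1r3f, did not pass. Ppp1r9a, the actin-binding neurabin, measured 9.90, 9.78 and 10.18 in JQ1 mice and 8.89 and 8.92 in Control mice (1.05 ± 0.15, adjusted p = 2.44e-05). Its dimmer probe was detected in every JQ1 mouse and in no Control mouse and was at least 1.6-fold higher. That probe was kept only through the JQ1 mice and adds no separate support. Ppp1r14a, the smooth muscle inhibitor CPI-17, measured 6.37, 6.98 and 6.90 in JQ1 mice and 5.39 and 5.70 in Control mice (1.20 ± 0.21, adjusted p = 0.000185), and its dimmer probe rose as well (0.82 ± 0.24, adjusted p = 0.0109). Of the 5 peritubular and smooth muscle markers in the same mice, Acta2, Mylk and Myh11 rose by 1.16, 1.21 and 0.69, Des did not pass (0.34, adjusted p = 0.138) and Actg2 was lower (-0.43, adjusted p = 0.00891), and their part in this result was not tested.

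Ppp1r27 was the PP1 subunit with the largest fall. It measured 8.52, 8.23 and 7.97 in JQ1 mice, against 9.35 and 9.33 in Control mice, and was 2.14-fold lower (-1.10 ± 0.16, adjusted p = 4.72e-05). Ppp1r14bl, annotated as similar to the inhibitor gene Ppp1r14b, and Ppp1r14b itself were lower by -0.83 ± 0.13 and -0.68 ± 0.17 (adjusted p = 9.1e-05 and 0.00331). Probes of such near copies may read each other's transcript, which was not tested. Ppp1r42, a leucine-rich repeat protein first found in testis, measured 5.81, 5.87 and 6.12 in JQ1 mice and 6.65 and 6.68 in Control mice (-0.74 ± 0.19, adjusted p = 0.00376). Ppp1r18, the actin-binding phostensin, was higher by 0.61 ± 0.14 (adjusted p = 0.00207), Ppp1r16b, known from endothelium, by 0.55 ± 0.20 (adjusted p = 0.0326), and the myosin-targeting Ppp1r12c was lower by -0.60 ± 0.19 (adjusted p = 0.0143). The last 2 of these calls were lost without single mice, with adjusted p up to 0.289 for Ppp1r16b and 0.0932 for Ppp1r12c.

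The subunits that direct PP1 to the translation factor eIF2 alpha moved in opposite directions. Ppp1r15a, the stress-induced GADD34, measured 6.60, 6.91 and 6.89 in JQ1 mice and 6.23 and 5.95 in Control mice (0.71 ± 0.19, adjusted p = 0.00473). Ppp1r15b, the constitutive CReP, measured 8.77, 8.63 and 8.67 in JQ1 mice and 9.26 and 9.15 in Control mice (-0.51 ± 0.14, adjusted p = 0.00674). The groups did not overlap for either gene, though the call of Ppp1r15a was lost without Control mouse 2 (adjusted p = 0.0566) and that of Ppp1r15b without Control mouse 1 (adjusted p = 0.0801). Ppp1r2, inhibitor-2, was higher by 0.41 ± 0.14 (adjusted p = 0.0218) and Ppp1r11, inhibitor-3, was lower by -0.33 ± 0.11 (adjusted p = 0.0265). The call of Ppp1r2 was lost without Control mouse 2 (adjusted p = 0.177) and that of Ppp1r11 without Control mouse 1 or JQ1 mouse 3 (adjusted p = 0.251 and 0.108).

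**Figure D3:**
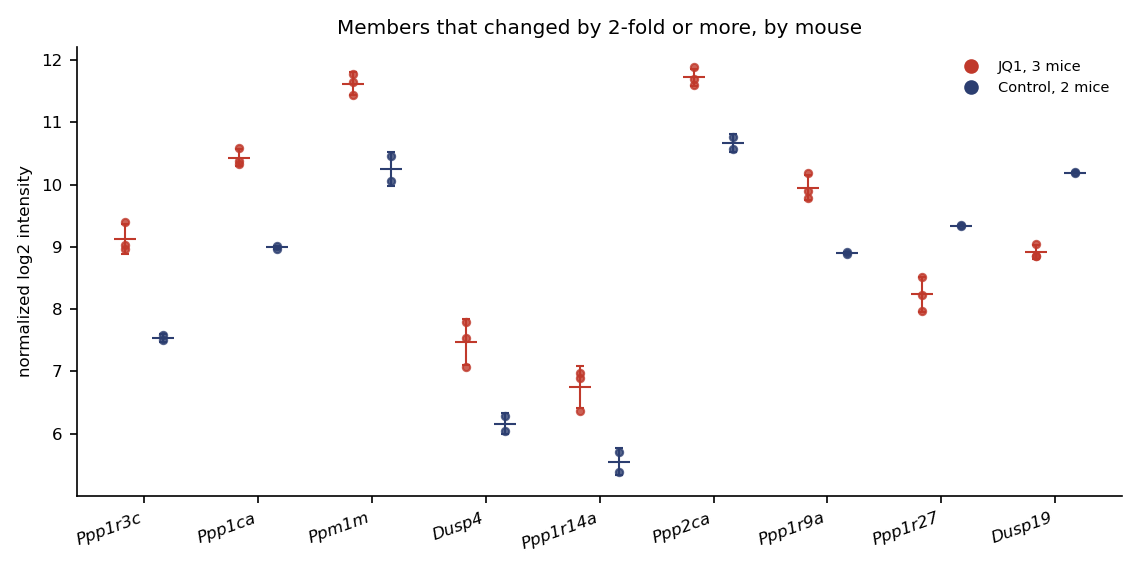
Normalized log2 intensity of the 9 members that changed by 2-fold or more, in each JQ1 mouse (left, 3 mice) and each Control mouse (right, 2 mice), with the mean and SD as bars. The genes were chosen for passing the test at 2-fold, so the gap between the JQ1 and Control mice adds no separate support. The height of one gene is not comparable with that of another.

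Of 11 PP4, PP5 and PP6 genes measured, 1 was higher, 1 lower, and 9 did not pass, beside 25.3% of all genes higher and 21.7% lower. None of the catalytic subunits Ppp4c (0.16 ± 0.12, adjusted p = 0.301), Ppp5c, a partner of the chaperone Hsp90 (0.01 ± 0.16, adjusted p = 0.957), or Ppp6c (-0.23 ± 0.13, adjusted p = 0.15) passed. Ppp4r3a, which targets PP4, measured 8.43, 8.57 and 8.89 in JQ1 mice and 7.83 and 7.99 in Control mice (0.72 ± 0.16, adjusted p = 0.00188). Ppp4r4 measured 7.93, 7.72 and 7.87 in JQ1 mice and 8.62 and 8.49 in Control mice (-0.72 ± 0.15, adjusted p = 0.00108), and its other probe was lower too (-0.80 ± 0.17).

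PPM phosphatases act as single chains that need metal ions. Of 11 measured, 3 were higher (5 with cyclic loess) and 1 was lower, beside 25.3% and 21.7% of all genes. Ppm1m measured 11.43, 11.65 and 11.78 in JQ1 mice, against 10.06 and 10.45 in Control mice, and was 2.59-fold higher (1.37 ± 0.14, adjusted p = 1.5e-06). Its second probe rose by 1.22 ± 0.16. Its dimmest probe, detected in no Control mouse, was at least 1.65-fold higher. That probe was kept only through the JQ1 mice and adds no separate support. Ppm1b, the beta isoform of PP2C, rose on 2 probes (0.80 ± 0.14 and 0.88 ± 0.14) and fell on its dimmest (-0.65 ± 0.21, adjusted p = 0.0177), and the average of its probes did not pass (0.34, adjusted p = 0.057). Ppm1h, which acts on Rab GTPases, was higher on its brighter probe (0.52 ± 0.19, adjusted p = 0.0332) and lower on the dimmer one (-0.92 ± 0.21, adjusted p = 0.00174). Ppm1g, a nuclear isoform linked to splicing, was lower by -0.51 ± 0.15 (adjusted p = 0.0102). The call of Ppm1g was lost without Control mouse 1 or JQ1 mouse 3 (adjusted p = 0.0832 and 0.0598), and that of the brighter Ppm1h probe without any of 3 mice, with adjusted p up to 0.272.

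Among the MAP kinase phosphatases, which switch off ERK, p38 and JNK, limma's test called 3 of 8 higher and 0 lower, beside 25.3% and 21.7% of all genes. At an unadjusted p under 0.05 the limma counts were also 3 and 0, and the share of all genes at that cut was not counted. Dusp6, a cytoplasmic phosphatase of ERK that ERK signalling itself induces, measured 8.55, 8.56 and 8.78 in JQ1 mice, against 7.82 and 7.81 in Control mice (0.81 ± 0.15, adjusted p = 0.000334). Its dimmer probe, detected in all JQ1 mice and no Control mouse, was kept only through the JQ1 mice. It did not pass (adjusted p = 0.116) and adds no support. Dusp4, a nuclear phosphatase of ERK and JNK, measured 7.54, 7.07 and 7.79 in JQ1 mice, against 6.05 and 6.28 in Control mice, and was 2.47-fold higher (1.30 ± 0.20, adjusted p = 7.02e-05). The other 3 probes of Dusp4, with changes of -0.19, 0.17 and -0.10, did not pass, and averaged over its 4 probes the change was 0.30 (adjusted p = 0.15). Dusp7, another cytoplasmic ERK phosphatase, was higher by 0.60 ± 0.20 (adjusted p = 0.0215), a call lost without Control mouse 1 or JQ1 mouse 1 (adjusted p = 0.185 and 0.0767). Dusp1, the immediate early MAP kinase phosphatase, measured 8.84, 8.76 and 9.01 in JQ1 mice and 8.69 and 8.76 in Control mice, with overlap (adjusted p = 0.438).

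Of the 13 atypical Dusp genes measured, 1 was higher and 6 were lower, beside 25.3% and 21.7% of all genes. The count of lower genes was 3 with cyclic loess, with the second array of Control mouse 1 alone, and without JQ1 mouse 3, Control mouse 1 or Control mouse 2. It was 2 with no detection filter, and 1 (Dusp19) without JQ1 mouse 2. Dusp19, which binds kinases of the JNK pathway, had the largest fall of any member by its brightest probe. It measured 9.04, 8.85 and 8.86 in JQ1 mice, against 10.20 and 10.18 in Control mice, and was 2.41-fold lower (-1.27 ± 0.14, adjusted p = 1.97e-06). Dusp18, a mitochondrial phosphatase, and Dusp12, which carries a zinc-binding domain, were lower by -0.70 ± 0.22 and -0.65 ± 0.21 (adjusted p = 0.0137 and 0.0156). These are dim genes, and both calls were lost on leaving out single mice (adjusted p up to 0.0886 for Dusp18 and 0.148 for Dusp12). Dusp11, a phosphatase of the 5′ end of RNA, was higher on both of its probes (0.43 ± 0.16 and 0.84 ± 0.15, adjusted p = 0.0336 and 0.000215). The call of its brighter probe was lost on leaving out any mouse but Control mouse 2, with adjusted p up to 0.541 without Control mouse 1.

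Probes of the same gene did not always move together. Of 45 members with more than 1 kept probe, 3 (Ppm1b, Ppm1h and Ppp2r5e) had probes called in both directions, or 6.67%, where 1.89% of 4083 genes with several kept probes did. The dimmer probe of Ppp2r5e measured 6.41, 6.57 and 6.71 in JQ1 mice and 5.94 and 5.88 in Control mice (0.65 ± 0.18, adjusted p = 0.00787), against the fall of its brighter one. In 4 of the 40 members whose brightest probe had not changed by 2-fold, another probe had (Dusp3, Ppp1r12a, Ppp2r1b and Ppp2r5c), beside 5.01% of such genes overall. Dusp3 and Ppp1r12a are named here because of these values. Dusp3, the small atypical phosphatase VHR, measured 10.89, 11.09 and 10.84 in JQ1 mice and 11.04 and 11.01 in Control mice on its brightest probe, and 9.47, 9.50 and 9.74 in JQ1 mice against 8.27 and 8.59 in Control mice on the next (1.14 ± 0.15, adjusted p = 1.5e-05). Ppp1r12a, the myosin phosphatase target subunit, changed by 0.10 ± 0.15 on its brighter probe and by 1.39 ± 0.18 on its dimmer one (adjusted p = 0.599 and 1.12e-05). A further 2 probes of Ppp2r5c fell, and by more than its brightest, with changes of -0.88 ± 0.17 and -1.24 ± 0.20. Its remaining 2 probes changed the other way, by 0.19 ± 0.14 and 0.35 ± 0.19, and did not pass (adjusted p = 0.28 and 0.154). Where a call of the brightest probe could be compared with other probes, another probe passed in the same direction for 8 of 20 members (40.0%) and for 63.0% of all such genes. Which transcripts the probes read was not determined here.

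**Figure D4:**
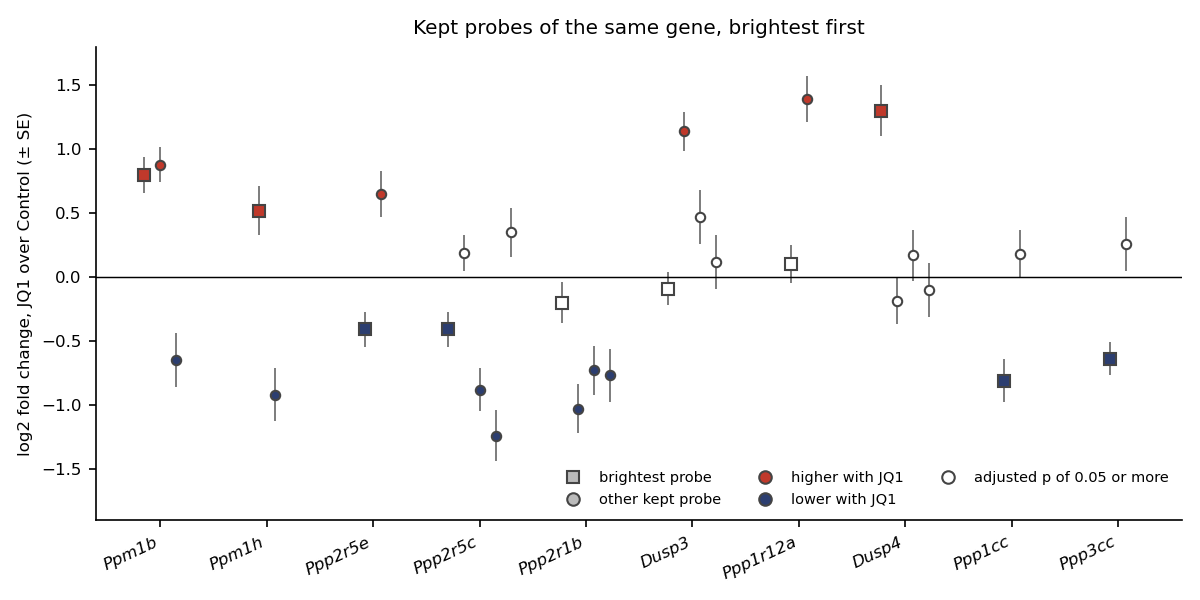
Log2 fold change, JQ1 over Control, with its standard error, of every kept probe of 10 members, ordered from the brightest (square) to the dimmest within each gene. Ppm1b, Ppm1h and Ppp2r5e have filled points on both sides of 0, and the brightest probes of Ppp2r1b, Dusp3 and Ppp1r12a did not pass while another probe did.

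Genes that act with these phosphatases were counted from lists that hold no member, to be read beside the 25.3% of all genes that were higher and the 21.7% that were lower. Of 12 calcineurin regulators and targets 5 were higher and 2 lower (median 0.30). Nfatc3, a transcription factor that calcineurin activates, rose by 1.02 ± 0.15 (adjusted p = 3.09e-05), and the calcineurin inhibitors Rcan3 and Rcan2 by 0.81 ± 0.19 and 0.72 ± 0.22 (adjusted p = 0.00222 and 0.0124). Of 19 PP1 partners 8 were higher and 1 lower (median 0.15), led by the 14-3-3 genes Ywhaz (1.39 ± 0.17) and Ywhah (1.19 ± 0.13) and by Phactr1, an actin- and PP1-binding protein (1.07 ± 0.17). Phactr2, 1 of the 8, was detected in no Control mouse and was at least 1.27-fold higher. It was kept only through the JQ1 mice, and its call adds no separate support. Of 15 modulators of PP2A and its relatives 4 were higher and 3 lower (median -0.10). Igbp1b, a paralog of the PP2A-binding protein Igbp1, fell by -1.22 ± 0.14 (adjusted p = 4.72e-06), whereas Anp32e and Anp32a, of a family of acidic nuclear proteins that includes PP2A inhibitors, rose by 1.03 ± 0.16 and 0.95 ± 0.15.

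Substrates and outputs of the MAP kinase pathways were examined in the same way. Of 13 MAP kinases and kinase kinases 5 were higher and 1 lower (median 0.04), beside 25.3% and 21.7% of all genes. Mapk14, the p38 alpha kinase, rose by 1.07 ± 0.16 and Map2k4, an activator of JNK and p38, by 1.02 ± 0.17. Mapk13, detected in no Control mouse and so kept only through the JQ1 mice, was at least 1.35-fold higher. Of 12 ERK-response and immediate early genes, limma's test called 7 higher and 0 lower, where 25.3% of all genes were higher. Etv5, 1 of the 12, is also on the spermatogonial list. At an unadjusted p under 0.05 limma called 8 higher and 0 lower, and the share of all genes at that cut was not counted. The median change of the 12 was 0.85, or 0.65 with the 3 genes detected in no Control mouse set at their bounds. Fos, 1 of the 7, is among those 3. It was kept only through the JQ1 mice, and its call adds no separate support. Fosl2, Ier3 and Egr1, a transcription factor of the AP-1 family, an early response gene and a zinc finger factor, rose by 1.99 ± 0.25, 1.33 ± 0.17 and 1.30 ± 0.15 (adjusted p = 7.16e-06, 1.07e-05 and 2.71e-06). The Sertoli, Leydig and macrophage markers given above moved in the same mice, and their part in these counts was not tested.

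**Figure D5:**
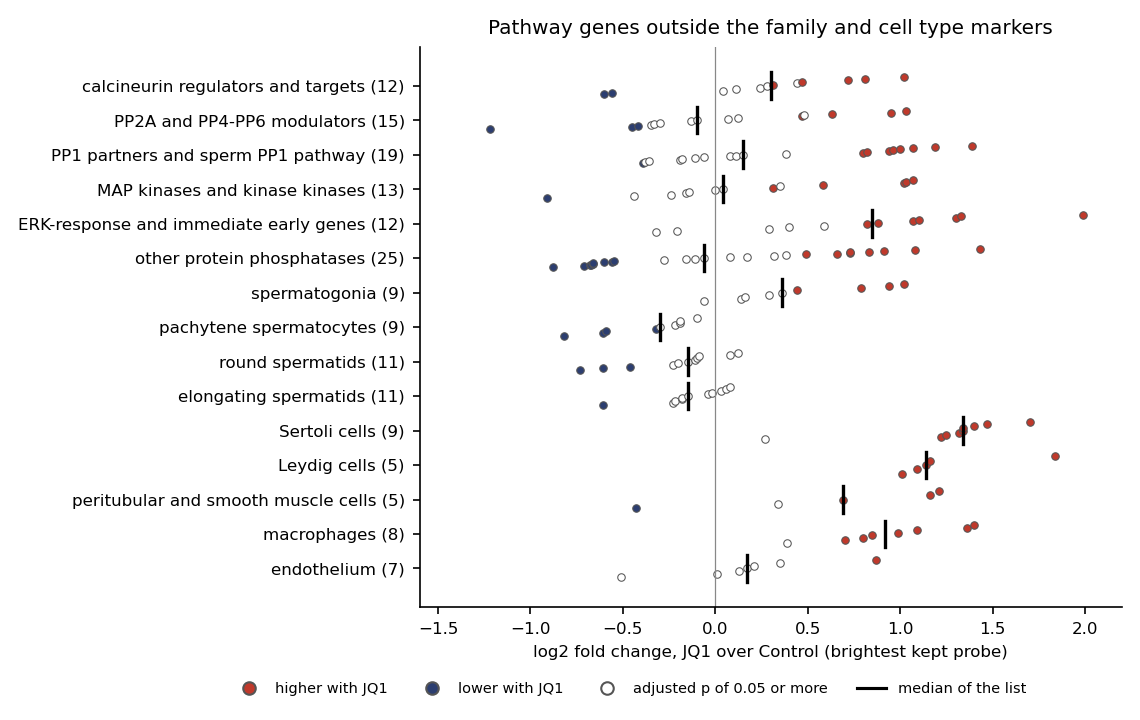
Log2 fold change, JQ1 over Control, of the genes of each pathway list and cell type marker list (points, brightest probe; number measured in brackets; black bars, list medians). Sertoli and Leydig cell markers have medians of 1.34 and 1.14, and pachytene spermatocyte markers a median of -0.30.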

How the data were processed

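Testis RNA of 3 JQ1 and 2 Control mice was measured on 6 Illumina bead arrays of 45281 probes. For every probe the authors deposited the raw linear intensity, the detection p-value belonging to it and a second intensity from which background had been subtracted before or after normalization. Their methods add that the 2 arrays of one mouse were averaged and that negative values became 1. The median raw intensity per array lay between 101.8 and 142.2, and 17799 to 20326 probes were detected per array, and the number of arrays limits the precision.

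Raw intensities were corrected by normexp (limma 3.58.1, R 4.3.3, offset 16, control-bead mean and SD estimated through the detection p-values), then quantile normalized and log2 transformed. The arrays of Control mouse 1 were averaged, and counted as detected by their mean detection p. Probes detected in at least 2 mice were kept (20554) and fitted with an intensity trend. Of all probes, 34885 have 1 gene symbol and 18 several. All 92 members carry their current RefSeq symbol. No per-sample column was left unassigned. Alternatives were: no background correction, an offset of 50, cyclic loess, the authors' values, other filters, each array of Control mouse 1 alone, no trend, an unequal-variance test on the authors' values, the mean over probes, a replicate block and each mouse left out. The fit was tested on simulated data.

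The members and lists were chosen with earlier results of these data known. Named were all catalytic subunits and scaffolds, every member past 2-fold, up to 2 further members per role and direction, and up to 3 genes per list. Dusp1, Dusp3, Ppp1r3d, Ppp1r3f, Ppp1r12a, Actg2, Des, Etv5, Fos and Phactr2 fall outside this rule and were named after their values were seen. For genes named because they passed the test, groups that lie apart add no separate support.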

Additional observations from a re-analysis of the deposited data

How the results depend on the processing

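Over up to 16 alternatives, which leave out the unequal-variance test, 21 of the 46 named members kept their direction and their status as called or not called. These include Ppp4c and Ppp6c, which were called in none of these fits. In 65 single comparisons a call was lost with the direction kept. The calls of Ppp2r5e and Ppm1h were also lost where averaging all kept probes reversed their direction. Without background correction, 4 members were higher and 1 lower by 2-fold, against 7 and 2. With an offset of 50, 4 were higher, and with cyclic loess 1 was lower by 2-fold. Over all genes the 2-fold counts were 429 higher and 72 lower without background correction, against 991 and 334. They were 631 higher with an offset of 50 and 239 lower with cyclic loess. Without a detection filter 19 members were lower in place of 29, beside 2270 of 19057 genes in place of 2521 of 11601. The unequal-variance test, which borrows nothing between probes, called 0 of 111 members higher and 0 lower, with 0 past 2-fold either way, and 1 of 19057 genes. At an unadjusted p under 0.05 the same test had 14 of the 111 members higher and 13 lower. The share of all genes at that cut was not counted. Leaving out each mouse gave 16 to 18 higher, 14 to 29 lower, 5 to 8 higher by 2-fold and 1 to 4 lower by 2-fold. The lowest count, 14, came without Control mouse 1, and 17 and 16 came without JQ1 mice 2 and 3. With a Control mouse left out, the lone Control mouse is assumed to vary like the JQ1 mice. The calls lost among named members numbered 3, 8 and 9 without JQ1 mice 1, 2 and 3, and 10 and 7 without Control mice 1 and 2.

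Averaging all kept probes of a gene turned Ppp2r5e to 0.12 (adjusted p = 0.473), Ppm1h to -0.20 (0.332) and the shift of Ppp3cc minus Ppp3ca to 0.18 (exact p = 0.3). It also ended the calls of Ppp1cc (-0.31, adjusted p = 0.0945), Ppp3cc (-0.19, 0.283), Dusp4 (0.30, 0.15), Ppp1r11 (-0.28, 0.0572) and Ppm1b (0.34, 0.057), and brought Ppp2r1b (-0.69, 0.00412), Ppp3ca (-0.37, 0.0213) and Ppp3cb (0.34, 0.0428) past the threshold. All 83 other paralog shifts kept their sign. Values near 0 changed sign: Ppp5c gave -0.02 with the second array of Control mouse 1 and -0.06 to 0.11 on leaving out each mouse, Ppp2r1b -0.42 to 0.01, with 0.01 without Control mouse 1, and Ppp1cb -0.13 to 0.17, with -0.11 without JQ1 mouse 3 and -0.13 without Control mouse 2.

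The mouse numbers are shared between groups, but nothing in the labels pairs the mice. Deviations from the group means correlated with r = 0.148 for number 1 and 0.022 for number 2. With the number as a replicate block, 18 members were higher, 26 lower, 5 higher by 2-fold and 1 lower by 2-fold, Ppp1cb was -0.11, and 4 named calls were lost. The cause of these changes was not tested.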

Other observations

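Other protein phosphatases, outside the families described above, also moved both ways. Of 25 measured genes of this list 8 were higher and 9 lower with JQ1 (median -0.06), where 25.3% and 21.7% of all genes were. Ctdspl, a small phosphatase of the RNA polymerase II tail, averaged 8.12 ± 0.12 in JQ1 mice and 6.70 ± 0.02 in Control mice (SD, n = 3 and 2), a change of 1.43 ± 0.16 (SE, adjusted p = 3e-06 by limma). Pdp2, a phosphatase of mitochondrial pyruvate dehydrogenase, averaged 8.42 ± 0.15 in JQ1 mice and 7.34 ± 0.21 in Control mice (1.08 ± 0.16, adjusted p = 5.32e-05). Ssu72, also a polymerase tail phosphatase, averaged 11.32 ± 0.14 in JQ1 mice and 10.40 ± 0.05 in Control mice (0.91 ± 0.13, adjusted p = 2.54e-05). In each of these genes all 3 JQ1 mice lay above both Control mice, but the genes were named for the largest changes of the list, so this adds no separate support.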
